A study of Homo sapiens with 4 samples.

Results

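The loops of 10 Wnt/beta-catenin target genes were taken from maps of RNAPII-linked DNA loops in HepG2, a human hepatocellular carcinoma cell line, and described gene by gene. The genes were AXIN2, NKD1, RNF43, ZNRF3, LGR5, SP5, TBX3, LEF1, GLUL and CCND1, out of 20046 protein-coding genes of the annotation. The maps come from POLR2A HiChIP-seq, in which chromatin held together by formaldehyde is cut with MboI, ligated and pulled down with an antibody against POLR2A, the catalytic subunit of RNAPII. Cells mock-treated with water were compared with cells exposed to 20 µM PDS, both for 24 h and with 2 biological replicates per condition. PDS (pyridostatin) is a small molecule that binds G-quadruplexes (G4s), four-stranded structures of guanine-rich DNA. Both conditions used this 1 tumour line. The deposited data hold 1 list of loops per condition with both replicates combined, so no spread between replicates can be given, and no test between conditions was made.

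A loop in these lists joins a pair of anchors, and its strength is the number of paired-end tags (PETs) that connect them. A loop was assigned to a gene when an anchor overlapped the gene body or the 20 kb on either side of it (GENCODE 44, GRCh38). By this rule the 10 genes had 125 of the 66417 mock loops and 33 of the 18778 PDS loops, and no loop belonged to more than 1 of them. The smallest PET count in both lists was 3, so a loop that is missing from a list may still have had up to 2 PETs there. The intervals below are 95% intervals, from the Wilson interval of a share, and cover counting error only. For PET ratios they treat each PET as a separate count, although PETs are listed only in loops of at least 3. The intervals of PET ratios are therefore too narrow. In a bulk assay, a loop present in fewer cells and a loop that is weaker in each cell cannot be told apart.

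In the canonical Wnt pathway, a ligand outside the cell keeps beta-catenin from being degraded, and beta-catenin then enters the nucleus and joins TCF/LEF factors on DNA to switch on target genes. Several targets code for proteins that restrain the same pathway, which makes a negative feedback loop. In the adult liver the pathway is active around the central vein, where it maintains glutamine synthesis and drug metabolism. HepG2 cells carry an activated form of beta-catenin, and the pathway is on in these cells without added ligand.

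The sequences that follow are shown because they are the kinds of site that bear on these genes: a DNA word read by TCF/LEF factors, and predicted G4 motifs, the kind of sequence that PDS acts on. The TCF/LEF core was searched as ATCAAAG on either strand, and a predicted G4 motif as 4 stretches of 3 or more G, on either strand, parted by 1 to 7 bases of any kind, G included, so that a long unbroken row of G can hold more than 1 stretch. Only this exact word was searched for the core, so sequences that differ from it were neither marked nor counted. RefSeq promoter sequences (GRCh38.p14) were given for 4 of the genes, SP5, RNF43, LEF1 and GLUL, but not for AXIN2, NKD1, ZNRF3, LGR5, TBX3 and CCND1. In the 250 bases before the start site, SP5 held the TCF/LEF core, as did 1.73% of 15842 protein-coding promoters, and GLUL held a G4 motif, as did 28.9% of them. The SP5 core begins 109 bases before the start site and reads on the opposite strand. It is in capitals in the plus strand of chr2:170715087-170715336:
SP5 promoter: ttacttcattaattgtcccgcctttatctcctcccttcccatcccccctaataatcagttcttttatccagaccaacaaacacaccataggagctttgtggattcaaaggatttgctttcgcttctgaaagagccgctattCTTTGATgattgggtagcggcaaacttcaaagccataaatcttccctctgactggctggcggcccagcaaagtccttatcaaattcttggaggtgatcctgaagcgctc

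The GLUL motif lies at chr1:182391987-182392008, within the untranslated region of some GENCODE transcripts. The other motifs lie in introns and are the shortest intronic motif in an anchor of a loop that was present in both lists, 1 for each gene with such an anchor. They are at chr17:65530440-65530458 (AXIN2, plus strand), chr16:50630492-50630508 (NKD1, plus), chr17:58377666-58377681 (RNF43, minus), chr22:28933779-28933802 (ZNRF3, minus) and chr11:69645170-69645187 (CCND1, plus). Each is written 5′ to 3′ on its guanine-rich strand, with every row of 3 or more G in capitals:
GLUL: GGGGcgtGGGGGaGGGGcaGGG
AXIN2: GGGGtGGGGGaGGGaaGGG
NKD1: GGGtGGGaaGGGGaGGG
RNF43: GGGtGGGtGGGtGGGG
ZNRF3: GGGGGaggaGGGaggaGGGaGGGG
CCND1: GGGtctGGGGtGGGGGGG

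All 10 genes had at least 1 loop in mock-treated cells, as did 80.7% of all protein-coding genes. Across the 10 genes the number of loops went from 125 to 33 after PDS, a ratio of 0.264 (0.180 to 0.387), and the PETs in listed loops went from 497 to 121, a ratio of 0.243 (0.2 to 0.297). The whole lists changed by about as much, with a ratio of 0.283 for loops and 0.263 for PETs, and loops at any protein-coding gene gave 0.270 and 0.245. The lower number at the target genes was therefore of the size found across the genome. When the PETs were divided by the PET total of each list, the ratio for the 10 genes was 0.925 (0.759 to 1.13). The sequencing depth of the libraries is not known from the lists, and its part in the drop was not tested.

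**Figure D1:**
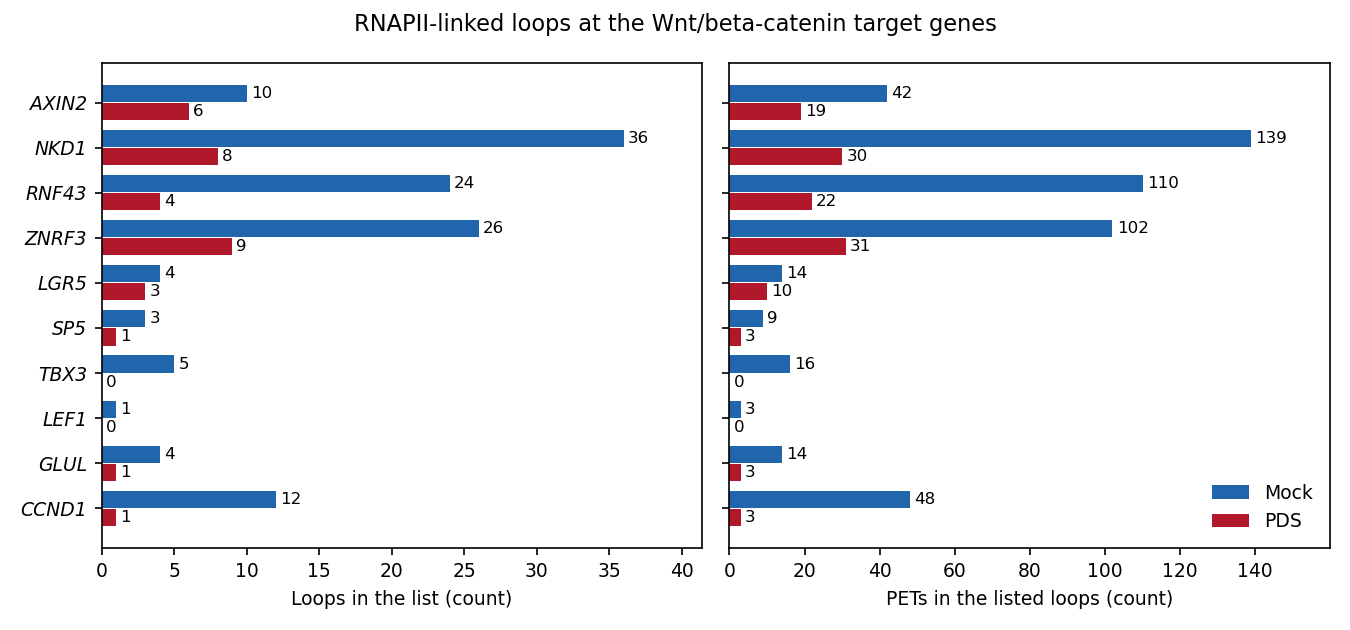
Loops (left) and PETs in listed loops (right) of each target gene in mock-treated (blue) and PDS-treated (red) HepG2 cells, as counts from 1 combined list per condition. NKD1, ZNRF3 and RNF43 hold most of the mock loops, and TBX3 and LEF1 have 0 loops in the PDS list.

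The loops were spread unevenly over the genes. NKD1 had 36 mock loops, ZNRF3 26, RNF43 24, CCND1 12 and AXIN2 10, whereas the other 5 genes had between 1 and 5. The median over all protein-coding genes was 4, and the upper quartile was 7. As many loops as NKD1 were found at 0.878% of protein-coding genes, and as many as RNF43 at 2.50%. Long genes have wider windows, and over their windows NKD1 had 25.6 mock loops per 100 kb, RNF43 23.1, CCND1 22.5, AXIN2 13.7 and ZNRF3 12.2. LGR5 and LEF1, with bodies of 147 and 121 kb, had 2.14 and 0.620.

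Of the 8 genes with at least 10 mock PETs, 7 had a PDS/mock PET ratio of 0.5 or lower, a drop shared by 93.0% of all genes with that many PETs. The exception was LGR5. The median ratio of the 8 genes was 0.215, beside 0.194 over all such genes, whose quartiles were 0.0645 and 0.308. The ratios ran from 0 at TBX3 to 0.714 at LGR5, and with few PETs per gene most of their intervals overlapped.

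AXIN2, NKD1, RNF43 and ZNRF3 all code for brakes on the pathway and were described together. AXIN2 is a scaffold of the complex that marks beta-catenin for degradation, NKD1 binds Dishevelled proteins, and RNF43 and ZNRF3 are membrane ubiquitin ligases that remove Frizzled receptors from the cell surface. Together they had 96 of the 125 mock loops and 27 of the 33 PDS loops, a ratio of 0.281 (0.184 to 0.430). Of the 12 loops present in both lists, 11 were at these genes. They made up 11.5% (6.52 to 19.4%) of the mock loops of these genes, beside 11.0% of all mock loops. The other 6 genes went from 29 to 6 loops, a ratio of 0.207 (0.0882 to 0.485), and the intervals of both groups overlap.

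RNF43 (chr17:58353676-58417595, minus strand) had 24 loops with 110 PETs in mock-treated cells and 4 loops with 22 PETs after PDS. In mock-treated cells its main promoter anchor (chr17:58410837-58418645, 7.81 kb) was the start of a fan of loops into its own gene. The strongest joined the promoter to an intronic anchor 34.3 kb away with 11 PETs, and loops to anchors 43.6 and 16.1 kb away had 10 PETs each. A loop of 62.2 kb with 6 PETs reached the promoter of the neighbouring gene SUPT4H1, which codes for a transcription elongation factor. The same promoter anchor also holds the start of ENSG00000285897, an annotated gene that spans SUPT4H1 and RNF43, so the loops cannot be assigned to either gene alone.

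After PDS the fan was mostly gone from the list and a longer loop was the strongest. The 34.3 kb loop had 5 PETs, and both loops of 10 PETs were missing, as was the loop to SUPT4H1. If the missing loops of 10 PETs had the highest count that a list can hide, 2, their ratio would be 0.2, with an upper limit of 0.812. The loop from the RNF43 promoter to the promoter of TSPOAP1, 91.1 kb away, went the other way, from 4 to 10 PETs, a ratio of 2.50 (0.830 to 7.53). A further loop from the same anchor to a TSPOAP1 promoter, 107 kb away, was listed only after PDS, with 3 PETs. In all, the RNF43 promoter anchor had 4 mock and 13 PDS PETs toward TSPOAP1, and 49 mock and 5 PDS PETs toward all other anchors, a split chosen after the values were seen. A rise in PETs of 6 or more was found at 6 of the 7333 loops shared by both lists, this loop included, and 50 of the 18778 PDS loops had 10 or more PETs. With single counts of this size the interval of the ratio includes 1.

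NKD1 (chr16:50548396-50649249, plus strand) went from 36 loops and 139 PETs to 8 loops and 30 PETs. Of its mock loops, 13 had both anchors upstream of the start site or over it. Others ran from there into the gene or past it, or lay wholly downstream of the start. An anchor upstream of the gene (chr16:50527049-50532901) was the busiest, with 9 mock loops and 39 PETs, the strongest of them with 8 PETs to an anchor 10.8 kb away. The promoter anchor itself was part of 4 mock loops, and the strongest of these ran into the first part of the gene and had 7 PETs. None of these was in the PDS list. Counted by position, 21 mock loops with 81 PETs had an anchor upstream of the start site or over it, and 0 PDS loops did.

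The other NKD1 loops lay wholly downstream of the start, with anchors inside the gene or beyond its 3′ end. They numbered 15 with 58 PETs in mock-treated cells and 8 with 30 PETs after PDS, a ratio of 0.517 (0.334 to 0.801). This split was also chosen after the values were seen. All 5 shared NKD1 loops were among them, with 6, 4, 4, 3 and 3 PETs in mock-treated cells and 4, 3, 4, 4 and 4 after PDS. An anchor in the last part of the gene (chr16:50630066-50645733) was in 4 mock loops (16 PETs) and in 5 PDS loops (19 PETs), whereas the next anchor, over the 3′ end (chr16:50648080-50658607), was in 3 (15 PETs) and 1 (4 PETs). The former was joined after PDS to an anchor 228 kb away, with 4 PETs, which was not listed with it in mock-treated cells. In mock-treated cells the same distant anchor was joined to the anchor over the 3′ end, 212 kb away, with 3 PETs. That loop was not in the PDS list. Mock loops to the promoter regions of ADCY7 and CYLD had 3 PETs each.

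**Figure D2:**
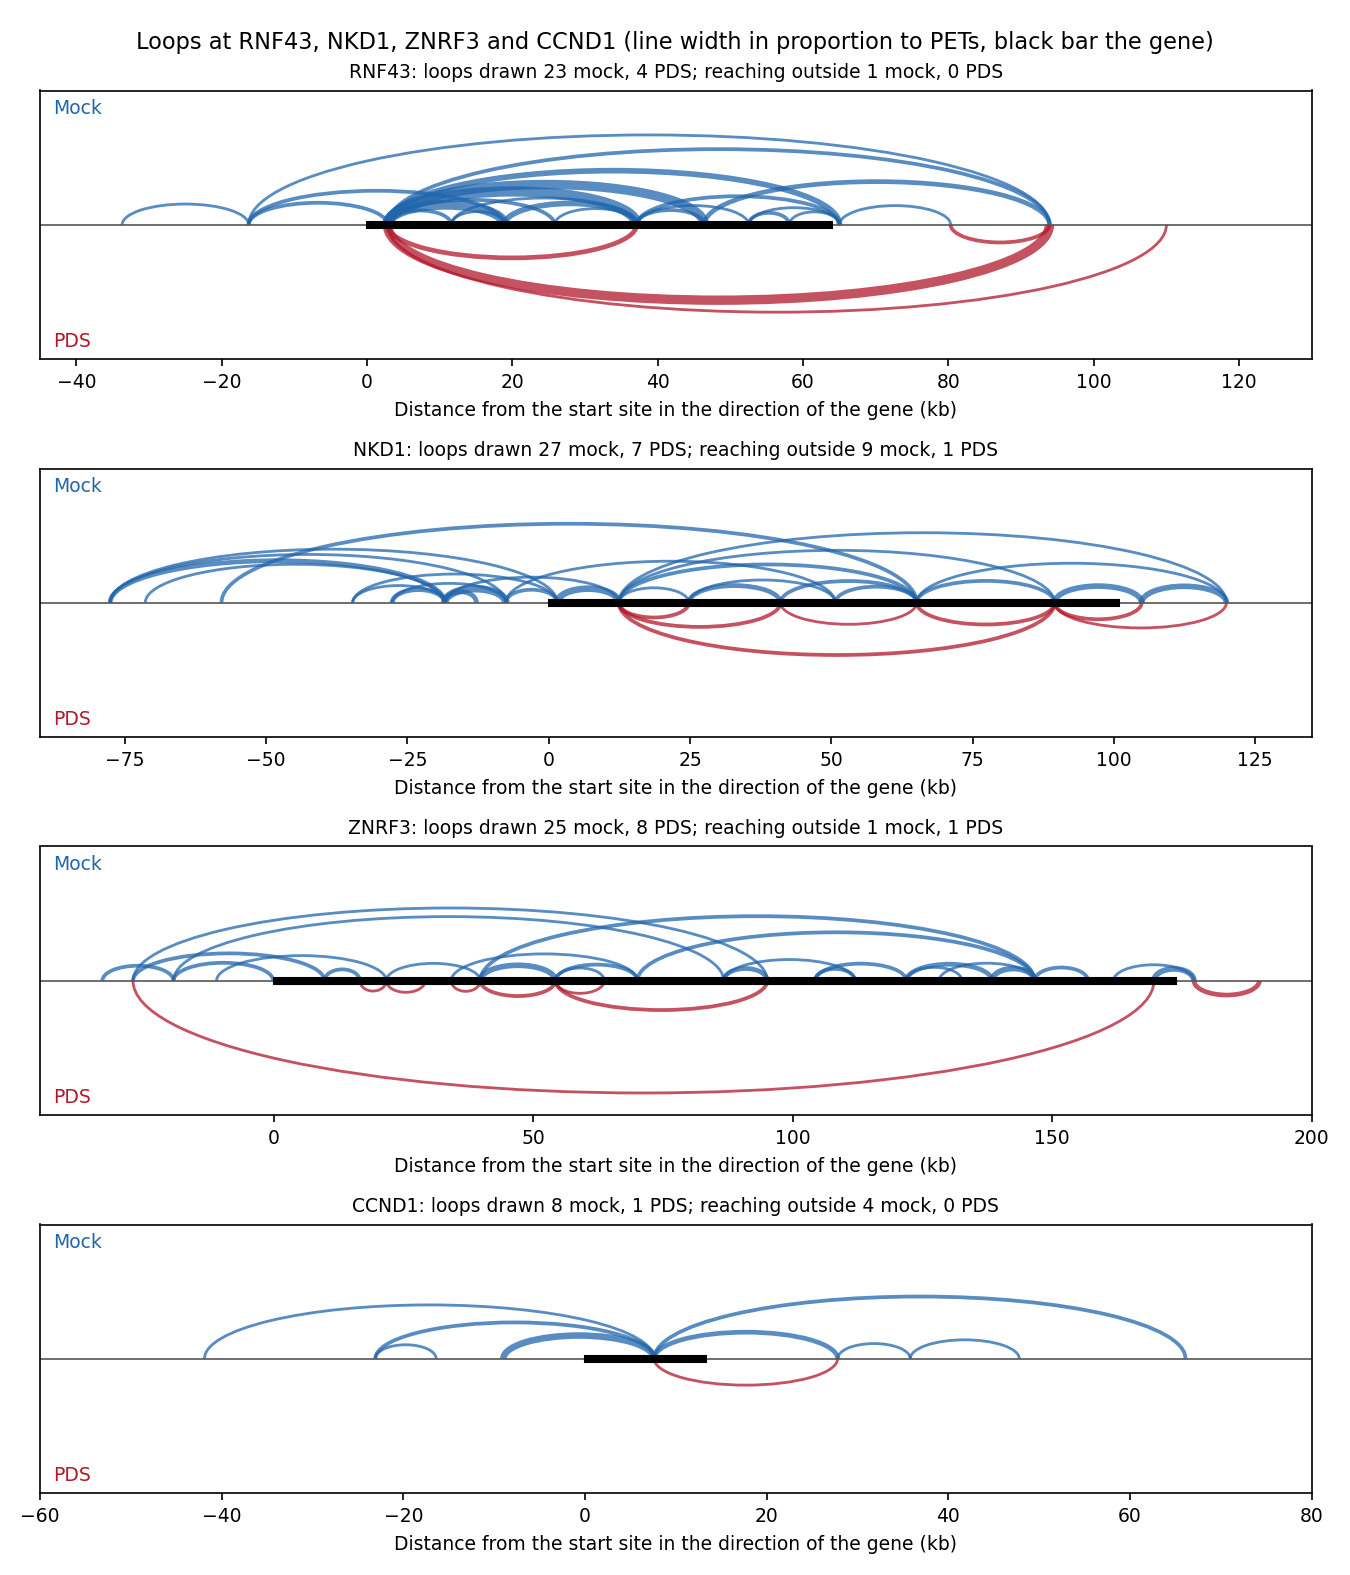
Loops at RNF43, NKD1, ZNRF3 and CCND1 drawn between anchor midpoints against the distance from the start site in the direction of the gene (kb), mock above the line in blue and PDS below it in red, with line width in proportion to PETs and the gene as a black bar. Loops reaching beyond a panel are counted in its title; the broad red arc at RNF43 is the loop with 10 PETs after PDS, and no red arc starts at or before the NKD1 promoter.

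ZNRF3 (chr22:28883572-29057488, plus strand), the partner of RNF43 in function, went from 26 loops and 102 PETs in mock-treated cells to 9 loops and 31 PETs after PDS. Of the mock loops, 22 had both anchors in the gene window, the median anchor distance was 17.1 kb, and the highest count was 6 PETs. Its canonical promoter anchor had a single mock loop, of 4 PETs, to an upstream anchor. Both shared loops were at intronic anchors, with 6 and 4 PETs (14.5 kb) and with 3 and 3 PETs (9.43 kb) in mock-treated and PDS-treated cells. With both anchors within the first 100 kb of the gene the mock list had 7 loops (28 PETs) and the PDS list 6 (20 PETs). With both anchors further along, before the anchor over the 3′ end, they had 7 (29 PETs) and 0. This division was made after the values were seen. It leaves out loops with only 1 anchor in the later stretch. Among these are mock loops from the first 100 kb, and a PDS loop of 197 kb with 3 PETs from an anchor upstream of the gene. The anchor over the 3′ end also covers the C22orf31 promoter. After PDS it was joined to KREMEN1, a gene for a co-receptor of the DKK inhibitors, with 5 PETs over 12.6 kb. Neither that loop nor a second one to KREMEN1, with 3 PETs, was in the mock list. In mock-treated cells the same anchor had 2 loops into ZNRF3, with 6 and 3 PETs, and neither was in the PDS list. Its PETs were thus 9 in the mock list and 8 in the PDS list.

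AXIN2 (chr17:65528563-65561648, minus strand), often used as a readout of the pathway, had 10 loops in mock-treated cells (42 PETs) and 6 after PDS (19 PETs), a PET ratio of 0.452 (0.265 to 0.773). Of the genes with at least 10 mock PETs, 89.4% had a lower PET ratio or the same. The loop ratio of AXIN2 was 0.600 (0.227 to 1.59). The strongest mock loop, with 10 PETs, joined an anchor over the 3′ end of the gene, which also holds an alternative start site, to an intronic anchor 15.8 kb away, and had 3 PETs after PDS, a ratio of 0.3 (0.0891 to 1.01). The shared loop of 277 kb, from the 3′ end of AXIN2 into CEP112, had 3 PETs in mock-treated cells and 4 after PDS. Of the AXIN2 loops longer than 200 kb, 2 were in the mock list with 6 PETs and 4 in the PDS list with 13 PETs, whereas those of up to 50 kb went from 8 loops with 36 PETs to 2 loops with 6. These distance classes were chosen after the values were seen, and apart from the shared loop all the long PDS loops had 3 PETs. The anchors over AXIN2 also lie over ENSG00000266076, another annotated gene, so their loops cannot be assigned to either gene alone. A mock loop of 9.11 kb with 4 PETs, upstream of AXIN2, had both anchors in ENSG00000266076 only.

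LGR5 (chr12:71439798-71586310, plus strand) codes for a receptor of R-spondins, the secreted proteins that keep RNF43 and ZNRF3 from acting. It had 4 loops in mock-treated cells (14 PETs) and 3 after PDS (10 PETs), and its PET ratio was 0.714 (0.324 to 1.58). None of the loops were shared, and none had an anchor within 1 kb of an LGR5 start site. The mock loops lay between intronic anchors (4 PETs each at 14.4 and 7.58 kb) or joined the region before the gene, which TSPAN8 overlaps, to the gene and to the ZFC3H1 promoter 207 kb away. The 3 PDS loops, with 4, 3 and 3 PETs, were all shorter than 10 kb. A similar number of loops in both lists therefore did not mean the same loops.

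SP5, TBX3 and LEF1 code for transcription factors, and together had 9 loops in mock-treated cells (28 PETs) and 1 after PDS (3 PETs). SP5 (chr2:170715337-170718078, plus strand) had 3 mock loops of 3 PETs each. The anchor over its promoter, which holds the TCF/LEF core printed above, was joined to a site inside MYO3B 220 kb upstream in mock-treated cells, and to another site in MYO3B 61.7 kb upstream after PDS, with 3 PETs each. TBX3 (chr12:114670255-114684175, minus strand) had 5 mock loops with 3 or 4 PETs, 3 of them from its promoter anchors and 1 that spanned 740 kb, and 0 after PDS. Among genes with at least 10 mock PETs, 23.7% likewise had no PET in the PDS list. LEF1 (chr4:108047545-108168956, minus strand) had a single mock loop, of 3 PETs between intronic anchors 8.06 kb apart, and 0 after PDS.

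GLUL (chr1:182378098-182392206, minus strand), which codes for glutamine synthetase and marks hepatocytes around the central vein, had 4 mock loops (14 PETs) and 1 PDS loop (3 PETs). Its promoter anchor, which holds the G4 motif printed above, was joined in mock-treated cells to a distal anchor 248 kb away with 5 PETs and to another 72.4 kb away with 3 PETs. Neither loop was in the PDS list. The same distal anchor was present there in a loop of 223 kb and 3 PETs to the region beyond the 3′ end of GLUL.

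CCND1 (chr11:69641156-69654474, plus strand) codes for cyclin D1, which drives entry into S phase. It went from 12 mock loops with 48 PETs to 1 PDS loop with 3 PETs, a PET ratio of 0.0625 (0.0206 to 0.189), below the interval of the 10 genes together. A ratio as low or lower was found at 24.9% of genes with at least 10 mock PETs. A single anchor of 21.4 kb (chr11:69638038-69659447) covered the whole gene and a promoter of its neighbour LTO1, so both genes share its loops. In mock-treated cells it had 9 loops with 39 PETs, of which 7 reached upstream sites, including 1 with 7 PETs to the adjacent upstream anchor, 1 with 5 PETs to the MYEOV promoter 345 kb away, and others 491 and 545 kb away. A loop with 4 PETs reached the promoter of FGF19, a gene for a hormone of bile acid control, 58.6 kb downstream. None of the 7 upstream loops was in the PDS list, and the loop kept was that to LTO1, 20.2 kb away, with 5 and 3 PETs.

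**Figure D3:**
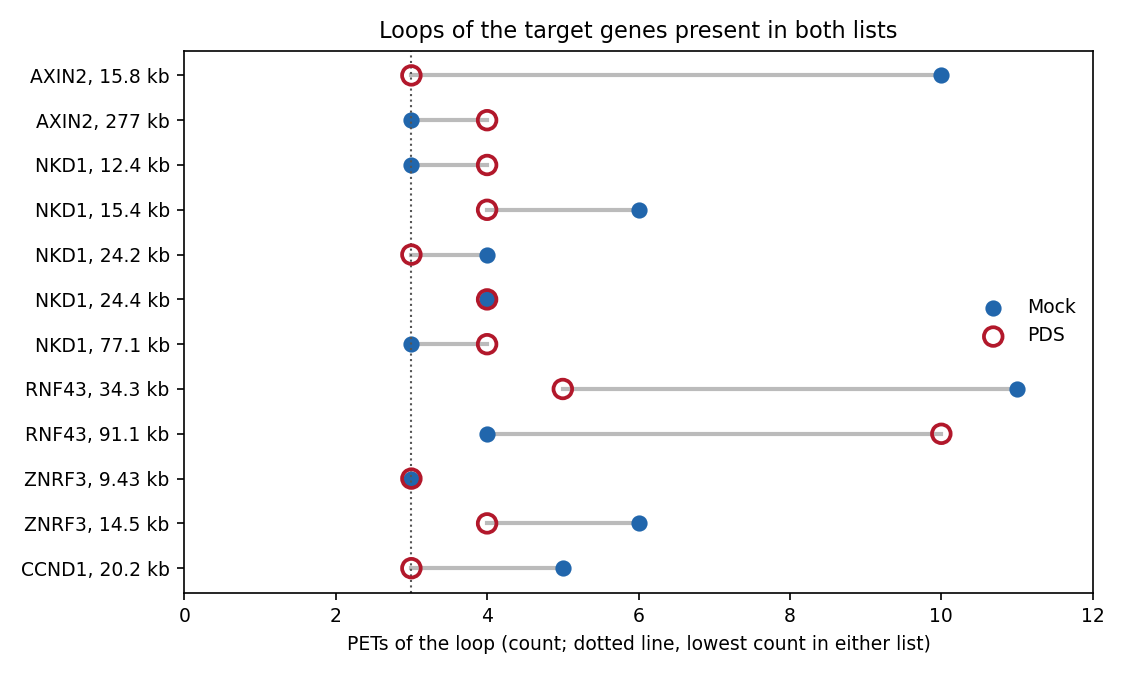
PETs in mock-treated (filled blue) and PDS-treated (open red) cells of the 12 loops found in both lists, each named by its gene and its anchor distance. The RNF43 loop of 91.1 kb went from 4 to 10 PETs, while the loops of 10 PETs at AXIN2 and 11 PETs at RNF43 had 3 and 5 after PDS.

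In both lists 12 loops were found, or 9.60% (5.58 to 16.0%) of the mock loops of the target genes, beside 11.0% of all mock loops. Of the 33 PDS loops, 21, or 63.6%, were absent from the mock list, beside 60.9% of all PDS loops. Among the 12 shared loops, 4 had more PETs after PDS, 2 had the same number and 6 had fewer, and of all shared loops 14.6% had more PETs after PDS. Apart from the RNF43 loop, the 3 others that were higher differed by 1 PET. Both conditions require at least 3 PETs for a loop to count as shared, so a loop of 3 mock PETs could enter this comparison only with no loss.

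The share of mock loops kept was higher for loops with more PETs, at the target genes as in the whole list. Of mock loops with 3 PETs, 4 of 62 (6.45%) were kept at the target genes, beside 5.97% of all. The shares were 7.69% of 39 loops beside 11.7% at 4 PETs, 15.0% of 20 loops beside 24.9% at 5 to 9 PETs, and 2 of 4 loops beside 62.6% at 10 or more. The intervals at the target genes include the share of the whole list in each of these classes. Of the 24 mock loops with at least 5 PETs, 19 were absent after PDS, 7 of them at NKD1, 5 at RNF43, 4 at ZNRF3, 2 at CCND1 and 1 at GLUL. If each had 2 PETs after PDS, the upper limit of the ratio would be 0.812 for the RNF43 loops of 10 PETs. For all the others it would be 1.04 to 1.79, a range above 1. The share kept in this class was 20.8% (9.24 to 40.5%), beside 26.8% of all mock loops with at least 5 PETs.

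**Figure D4:**
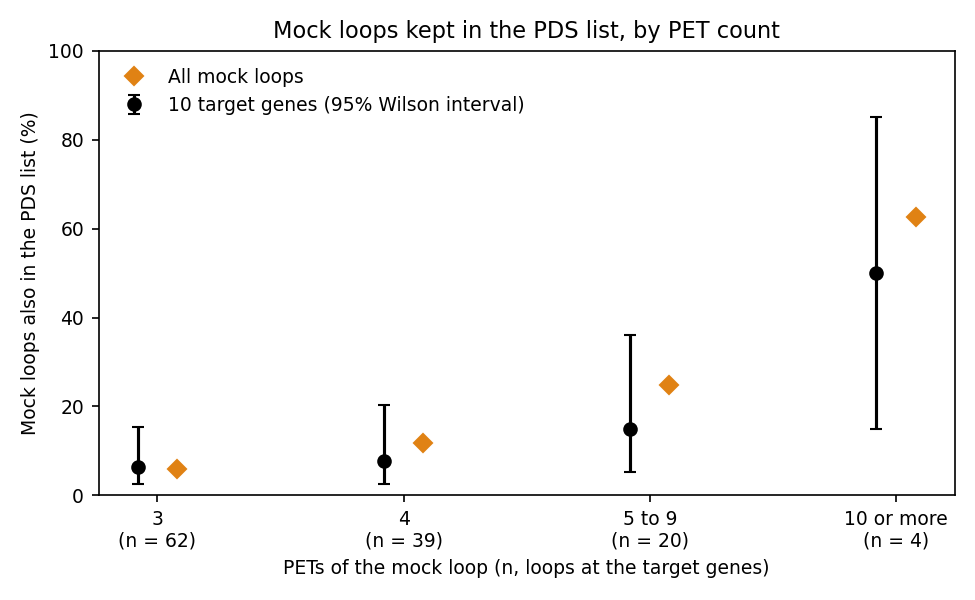
Percentage of mock loops also found in the PDS list, by the PETs of the mock loop, for the target genes (black, with 95% Wilson intervals) and all mock loops (orange). The black points go from 6.45% at 3 PETs to 2 of 4 loops at 10 or more, and all of their intervals contain the orange point.

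Long loops made up a larger share at the target genes than in the whole lists, a difference that was not tested. The median anchor distance was 20.7 kb in mock-treated cells and 24.4 kb after PDS, beside 17.4 and 17.2 kb for all loops. Loops of over 200 kb made up 11.2% (6.79 to 17.9%) of the 125 mock loops, beside 5.68% of all mock loops, and 18.2% (8.61 to 34.4%) of the 33 PDS loops, beside 6%. Of the 14 long mock loops, 4 were at NKD1, 3 at CCND1, and 4 of the 6 long PDS loops were at AXIN2. Promoter anchors were about as frequent as elsewhere: 48.8% (40.2 to 57.5%) of mock loops and 42.4% (27.2 to 59.2%) of PDS loops of the target genes had an anchor at the promoter of any protein-coding gene, beside 46 and 41.4% of all loops. Loops with an anchor at the promoter of the target gene itself went from 46 to 11, a ratio of 0.239 (0.125 to 0.456). The ratio was 0.254 for all loops with an anchor at any protein-coding promoter. A start site of any transcript counted here. The 46 loops include 9 at AXIN2, some only through the alternative start site at its 3′ end, and 9 of the anchor that covers all of CCND1.

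Predicted G4 motifs were found in 52 of the 89 anchors in the gene windows (58.4%), beside 47.3% of all 81742 anchors, at densities of 3.30 and 2.20 per 10 kb. Of the mock loops 86.4% had a motif in at least 1 anchor, as did 90.9% of the PDS loops, beside 75.2 and 75.5% in the whole lists. Among the loops of the target genes, all 12 shared ones had a motif, beside 78.7% of all shared loops. The share was 85.0% of those found only in mock-treated cells, beside 74.8% of all such loops. It was 85.7% of those found only after PDS, beside 73.5%. The RNF43 promoter anchor held 0 motifs, whereas the TSPOAP1 anchor joined to it held 8, and the CCND1 anchor held 27. The TCF/LEF core was present in 64.0% of the anchors in the gene windows, beside 57.5% of all anchors. A match of this kind is a description of the reference sequence and does not show that a G4 or a TCF factor was there. Anchor width and base composition were not matched between these groups.

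**Figure D5:**
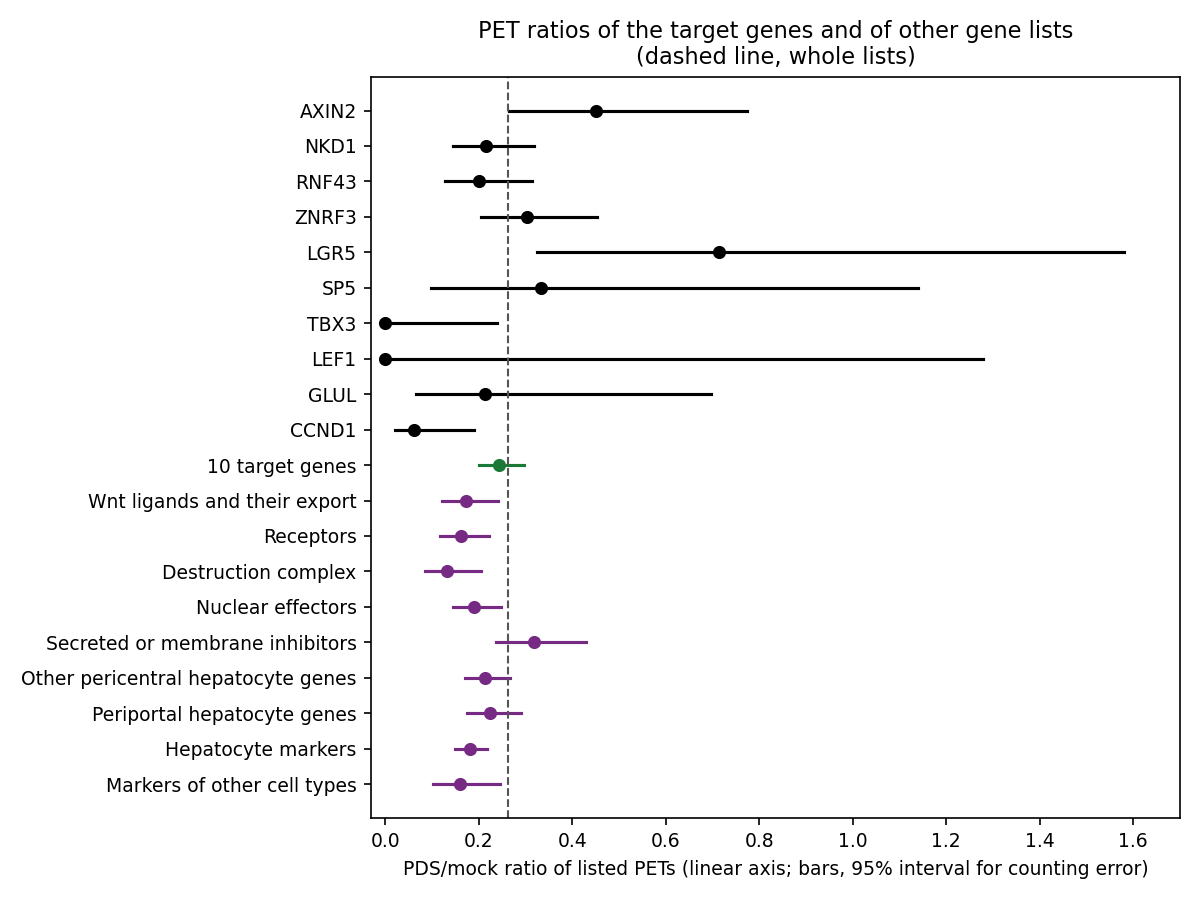
PDS/mock ratio of listed PETs with its 95% interval for counting error, for each target gene (black), the 10 genes together (green) and other gene lists (purple), on a linear axis with the whole lists as a dashed line at 0.263. The intervals of LGR5 and AXIN2 lie wholly to the right of the line and those of CCND1 and TBX3 wholly to the left, and a 0 stands for no listed loop. The lower limit of AXIN2, 0.265, is close to the line. Counted by loops instead of PETs, the interval of each of these genes includes the whole-list loop ratio of 0.283.

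The cell type was checked by loops at marker genes, which are no direct measure of expression. All 12 hepatocyte markers had mock loops, 174 summed over the genes, with HNF4A (192 mock PETs), APOB (142) and ALB (73) at the top, and a median of 47.0 mock PETs per gene. Of 10 markers of other cell types, 7 had mock loops, 39 summed over the genes, with a median of 11.5 PETs, and HBB, KDR and PTPRC had 0. Both marker lists had fewer PETs after PDS, with ratios of 0.181 (0.150 to 0.218) and 0.159 (0.103 to 0.245).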

How the data were processed

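POLR2A HiChIP-seq of HepG2 cells was measured in 4 libraries, 2 of mock-treated and 2 of PDS-treated cells. Per the submitters' processing notes, HiC-Pro 3.1.0 and GRCh38 were used, and the software for anchors and loops, and the way replicates were combined, are not given in the sources used here. The authors deposited 1 list of loops per condition in which each loop has a count of PETs as a whole number, not scaled for depth. Of 81742 anchors, 81737 had an MboI site at both ends in GRCh38, which settled the build and the coordinates.

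Loops were assigned to genes as stated in the results and matched between lists when both anchors overlapped by at least 1 bp. Promoter anchors lay within 1 kb of a start site of any transcript. Genes named are the 10 members, genes with a start site in a member window or in the other anchor of a loop with at least 5 PETs or in both lists, and up to 3 genes with most mock PETs in each other list. ZFC3H1, ADCY7, CYLD, CEP112, MYO3B, CTNNB1, FGF19, HBB, KDR, PTPRC and ENSG00000266076 fall outside this rule where named and were chosen after their values were seen. The member genes and lists were chosen with earlier results of these data known. Ratios, shares and intervals were computed with Python 3.11.15, numpy 2.4.6, pandas 2.3.3 and scipy 1.17.1, figures with matplotlib 3.10.9, and the matching and motif search were tested on simulated data. The alternatives tried were other windows, PET minimums, distances, matching rules and scaling, and, added after seeing the data, each other list without its gene with most mock PETs. PETs per loop are few, which limits single loops most.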

Additional observations from a re-analysis of the deposited data

How the results depend on the processing

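Of 39 alternative values for the 10 genes, 29 moved by no more than the counting interval of the reported value or, for the number of loops, by less than 1.5 times. The number of mock loops at the 10 genes was 79 with both anchors in the gene window, 46 with an anchor within 1 kb of a start site, 63 at a minimum of 4 PETs, 24 at a minimum of 5 PETs and 65 at distances of at least 20 kb. At the minimum of 5 PETs the loop ratio was 0.125, the PET ratio 0.129 and the share of mock loops kept 4.17%. The PET ratio was 0.925 with PETs divided by the list total, and the share kept was 36.8% when anchors were extended by 5 kb before matching. Every loop and PET ratio was below 1. Without NKD1, the gene with most mock loops, the loop ratio was 0.281. In an alternative chosen after seeing the data, leaving out the gene with most mock PETs gave a PET ratio of 0.552 for the inhibitors (without NOTUM) and 0.110 for the pericentral genes (without SLC13A3), and 7 other lists stayed within their intervals. No paired analysis was possible because the lists combine the replicates and carry no replicate number, and leaving out a replicate was not run for the same reason. The lists show PETs of 3 or more only, so the change of a missing loop is bounded and not measured.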

Other observations

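Other parts of the Wnt pathway also had fewer listed PETs after PDS. The PDS/mock ratio was 0.172 (0.122 to 0.242) for 12 genes of ligands and their export, 0.162 (0.118 to 0.223) for 14 receptors, 0.132 (0.0859 to 0.204) for 7 genes of the destruction complex and 0.189 (0.145 to 0.247) for 9 nuclear effectors. In these lists every gene with at least 10 mock PETs, 8, 8, 5 and 9 genes, had a ratio of 0.5 or lower, as did 93.0% of all genes with that many mock PETs. TCF7L1, a TCF factor often found as a repressor, had 89 mock and 18 PDS PETs, and TCF7L2 had 56 and 9. CTNNB1, the gene of beta-catenin, had 31 mock and 0 PDS PETs, and GSK3B, the kinase that marks beta-catenin for degradation, had 56 and 3. The 9 secreted or membrane inhibitors had a ratio of 0.318 (0.236 to 0.429), and 2 of their 4 genes with at least 10 mock PETs were at 0.5 or lower. Among them NOTUM, an enzyme that inactivates Wnt ligands, had 109 mock and 19 PDS PETs, and KREMEN1 had 30 and 18, a ratio of 0.600 (0.337 to 1.07). Without NOTUM, which holds most of the mock PETs of this list, the ratio of the other 8 genes was 0.552 (0.371 to 0.823). Part of the KREMEN1 count comes from the loops it shares with the ZNRF3 window, including the 9 mock and 8 PDS PETs of the anchor over the 3′ end of ZNRF3. The ratios of KREMEN1 and of the inhibitors are therefore not independent of the target genes, and were not recomputed without these loops.

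The other pericentral hepatocyte genes had a ratio of 0.214 (0.171 to 0.268) and the periportal genes 0.225 (0.174 to 0.290). The pericentral value rests on SLC13A3, with 266 mock and 74 PDS PETs. Without it the other 6 pericentral genes had 164 mock and 18 PDS PETs, a ratio of 0.110 (0.0678 to 0.178), and without PCK1, the periportal gene with most mock PETs, the other 9 periportal genes had 0.246 (0.184 to 0.329). PCK1, a key enzyme of gluconeogenesis, had 88 mock and 15 PDS PETs, and CPS1, the entry enzyme of the urea cycle, had 67 and 16. No test between lists was made.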
